A study of Mus musculus with 8 samples.

Results

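The genes described here encode the proteasome, its interferon-inducible form and its activators. They were all rows of the deposited table whose symbol began with Psma, Psmb, Psmc, Psmd, Psme, Psmf or Psmg followed by a digit, which gave 48 of 13245 genes. No row carried the pseudogene mark -ps, so none was dropped. Of the 48, 47 encode proteasome subunits, assembly chaperones, activators or an inhibitor, and 1, Psmc3ip, encodes a recombination cofactor that shares only the name. The thymus subunit Psmb11 and the testis subunit Psma8 were not analysed here.

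RNA-seq was carried out on CD8 T cells of the mouse lymph node that had been sorted as positive for Ly6C and CXCR3, a memory phenotype. There were 4 libraries from CD103Tg mice, which overexpress CD103, and 4 from B6 mice, the C57BL/6 wild type. The labels give neither the promoter of the transgene, the age of the mice nor whether a library came from 1 animal, and the p-values then cover only how far these libraries differ, which may be technical. Values are CPM, the reads of a gene per fixed number of library reads on a TMM-scaled library size, and 1 estimated read was worth 0.0171 to 0.0203 CPM. Itgae, the gene of CD103, stood at 3469 to 5509 CPM in CD103Tg libraries and 37.5 to 173.9 CPM in B6 libraries. The 6 identity and sort markers were all present, summing to 6881 to 7779 CPM in CD103Tg libraries and 6948 to 7941 CPM in B6 libraries, and 1 of them, Cd8a, was past the test as lower in CD103Tg.

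The proteasome degrades proteins tagged with ubiquitin. Its 20S core is a barrel whose outer rings are made of alpha subunits and whose inner rings are made of beta subunits, and the 19S particle that caps it binds, unfolds and feeds in the substrate. The catalytic beta subunits are Psmb5, Psmb6 and Psmb7. In lymphocytes, and in other cells exposed to interferon gamma, newly built cores take up Psmb8 (LMP7), Psmb9 (LMP2) and Psmb10 (MECL-1) in their place, and this immunoproteasome cuts proteins into peptides suited to MHC class I. The activator PA28, made of Psme1 and Psme2, opens the core without ubiquitin and is also induced by interferon gamma.

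Genes were tested on log2(CPM + 1) with limma over all 11503 genes whose mean reached 1 CPM, and a gene is called where its Benjamini-Hochberg adjusted p is under 0.05. All 48 genes were tested. In CD103Tg, 14 of the 48 rose and 1 fell, while 33 did not pass. The calls in either direction made up 31.3% of the 48 genes, and 31.2% of all tested genes were called, so the number of calls was that of the table as a whole. Their direction was uneven: 29.2% of the 48 were called higher, against 17.4% of all tested genes, and 2.08% lower, against 13.8% of all tested genes. The log2 fold change of CD103Tg over B6 was positive for 42 of the 48 genes, where 48.9% of all tested genes were positive, and its median was 0.10, beside -0.005 over all tested genes. Without B6 replicate 4 the median of the 48 genes was 0.061 and 37 were positive. The changes were small: they ran from -0.30 for Psme4 to 0.38 for Psmb8, a difference of 1.30-fold in mean CPM for Psmb8. Of the interferon-inducible genes Psmb8, Psmb9, Psmb10, Psme1 and Psme2, 4 of 5 rose, with a median log2 fold change of 0.34. Of the other 43 genes 10 rose and 1 fell, with a median of 0.08. Psmc3ip, the gene that is no subunit, was low, at 7.07 to 7.49 CPM in CD103Tg libraries and 6.63 to 7.65 CPM in B6 libraries, and did not pass.

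**Figure D1:**
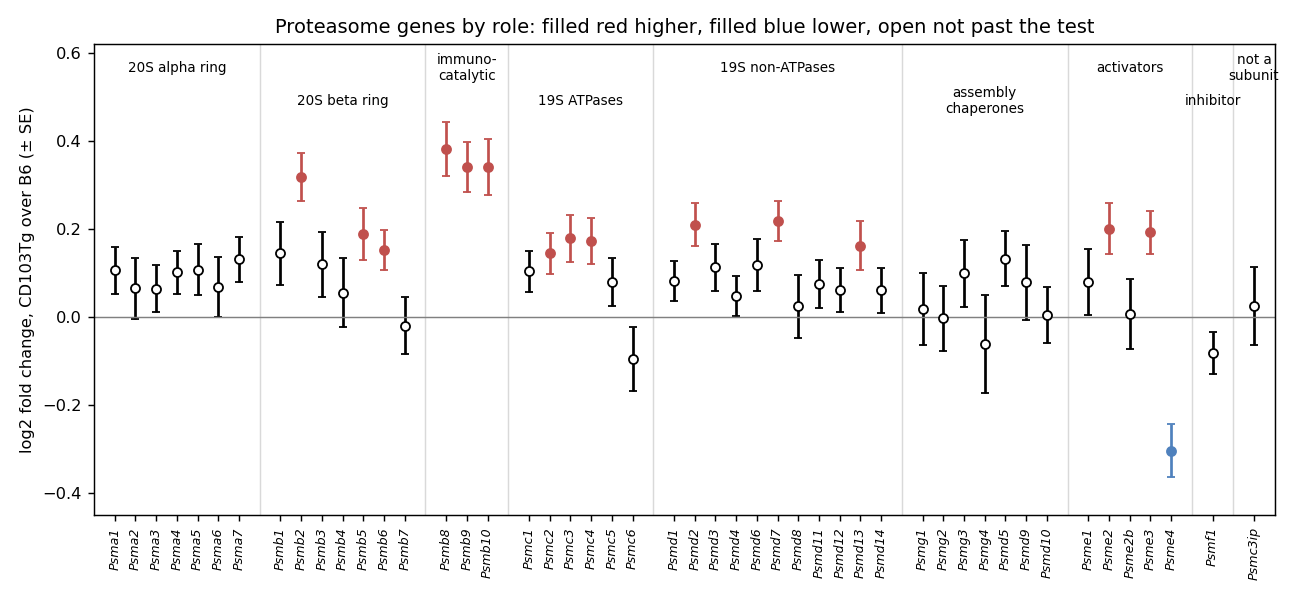
Log2 fold change (CD103Tg over B6, log2(CPM + 1) scale) of the 48 genes by role, with bars for the SE of the limma fit. Filled red points are the 14 genes called higher, the filled blue point is Psme4, called lower, and open points did not pass; the catalytic immunoproteasome genes are the highest group and the alpha ring has no called gene.

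Promoter sequences are given first for the 3 catalytic genes whose windows held a searched motif. The 250 bases before the RefSeq start (GRCm38.p6) were available for 41 of the 48 genes and were searched on both strands. The motifs were the interferon-stimulated response element (GAAA, any pair of bases, GAAA), the gamma-activated site bound by STAT factors (TTCNNNGAA) and the antioxidant response element (TGACNNNGC), through which the factor NRF1, encoded by Nfe2l1, is known to act on proteasome genes. The antioxidant response element matched 5 of 41 promoters (12.2%; 11.5% of all 27025 genes with a promoter), namely Psmb5, Psmb6, Psmc6, Psmd12 and Psmd9. The gamma-activated site matched 2 (4.88%; 8.13% of all genes), Psmb8 and Psmg1, and the interferon-stimulated response element 3 (7.32%; 3.46% of all genes), Psmb3, Psmd4 and Psmd9. The windows of Psmb9 and Psmb10 matched none of these letters. No match was recorded for Psme1 or Psme2 either, but a gene without an available window would also give none. Capitals mark the match in each sequence. The Psmb5 window (chr14:54618023-54618245, minus strand) is printed up to the most upstream annotated start, Psmb6 (chr11:70525107-70525356, plus strand) in full, and Psmb8 (chr17:34198088-34198116, plus strand) only around its match, since an annotated transcript already covers that stretch.
Psmb5: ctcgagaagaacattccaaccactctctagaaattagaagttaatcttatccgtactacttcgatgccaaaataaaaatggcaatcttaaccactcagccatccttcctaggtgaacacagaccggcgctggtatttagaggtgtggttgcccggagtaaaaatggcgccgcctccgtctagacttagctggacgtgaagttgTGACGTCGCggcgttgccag
Psmb6: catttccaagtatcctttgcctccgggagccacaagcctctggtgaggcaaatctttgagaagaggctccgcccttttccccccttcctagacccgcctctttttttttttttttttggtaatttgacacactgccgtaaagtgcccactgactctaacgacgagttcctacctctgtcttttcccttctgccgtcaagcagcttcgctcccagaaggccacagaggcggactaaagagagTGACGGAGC
Psmb8: tcctccgctgTTCCCAGAAgatgcccccc

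The catalytic immunoproteasome genes were higher in CD103Tg libraries, all 3 past the test and none overlapping between groups. Psmb8 (GRCm38 chromosome 17, 34197721 to 34201454) stood at 1021, 959.5, 949.6 and 907.2 CPM in CD103Tg libraries and at 751.5, 701.7, 795.2 and 699.6 CPM in B6 libraries. It was the most abundant of the 48 genes in CPM and had the largest fold change, 0.38 ± 0.061 on the log2 scale (SE; limma adjusted p = 0.000756), with means of 959 ± 46.9 CPM in CD103Tg and 737 ± 45.6 CPM in B6 (SD, n = 4 each). Psmb9 (chromosome 17, 34181987 to 34187764) had 276.4, 248.3, 275.5 and 262.5 CPM in CD103Tg libraries, against 208.7, 203.1, 226.4 and 200.2 CPM in B6 libraries. Every CD103Tg library lay above the highest B6 library, and the log2 fold change was 0.34 ± 0.057 (limma adjusted p = 0.000925). Psmb10, on chromosome 8 (105935735 to 105938444), had 255.7, 244.5, 254.7 and 238.3 CPM in CD103Tg libraries, against 184.7, 197.9, 219.7 and 183.0 CPM in B6 libraries. Its log2 fold change was also 0.34 (SE 0.063, limma adjusted p = 0.00185), again with no overlap.

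Psmb8 and Psmb9 lie on either side of Tap1, the gene of a peptide transporter subunit, in the MHC region. The RefSeq starts of Psmb9 and Tap1 point away from each other with 225 bases between them, and in GENCODE their exons overlap by 212 bases, 5.79% of the exon bases of Psmb9. Tap1 itself had 435.6, 420.9, 465.6 and 432.2 CPM in CD103Tg libraries, against 326.6, 330.4, 335.5 and 317.9 CPM in B6 libraries, a log2 fold change of 0.42 ± 0.049. The libraries are unstranded, and reads from the overlap cannot be assigned to Psmb9 or Tap1. Psmb8 shares 498 exon bases (14.7%) with the antisense gene Gm20496, and Psmb10 shares none with another gene.

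The constitutive catalytic genes changed less. Psmb5, with the chymotrypsin-like activity that Psmb8 replaces, had 196.0, 188.1, 187.9 and 175.9 CPM in CD103Tg libraries, against 159.8, 167.7, 178.1 and 151.5 CPM in B6 libraries. The groups overlapped, since the lowest CD103Tg library lay under the highest B6 library, and the log2 fold change was 0.19 ± 0.060 (limma adjusted p = 0.0336). Psmb6, the caspase-like subunit, had 204.3, 205.1, 196.2 and 200.4 CPM in CD103Tg libraries, against 181.5, 174.6, 189.5 and 179.6 CPM in B6 libraries. These groups did not overlap, with a log2 fold change of 0.15 ± 0.046 (limma adjusted p = 0.0266). Psmb7, the trypsin-like subunit, had 72.2, 65.7, 70.3 and 73.4 CPM in CD103Tg libraries, against 72.5, 70.05, 78.0 and 65.4 CPM in B6 libraries. It did not pass (log2 fold change -0.02 ± 0.065, limma adjusted p = 0.846), and 11.8% of its exon bases overlap Nek6 on the other strand.

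**Figure D2:**
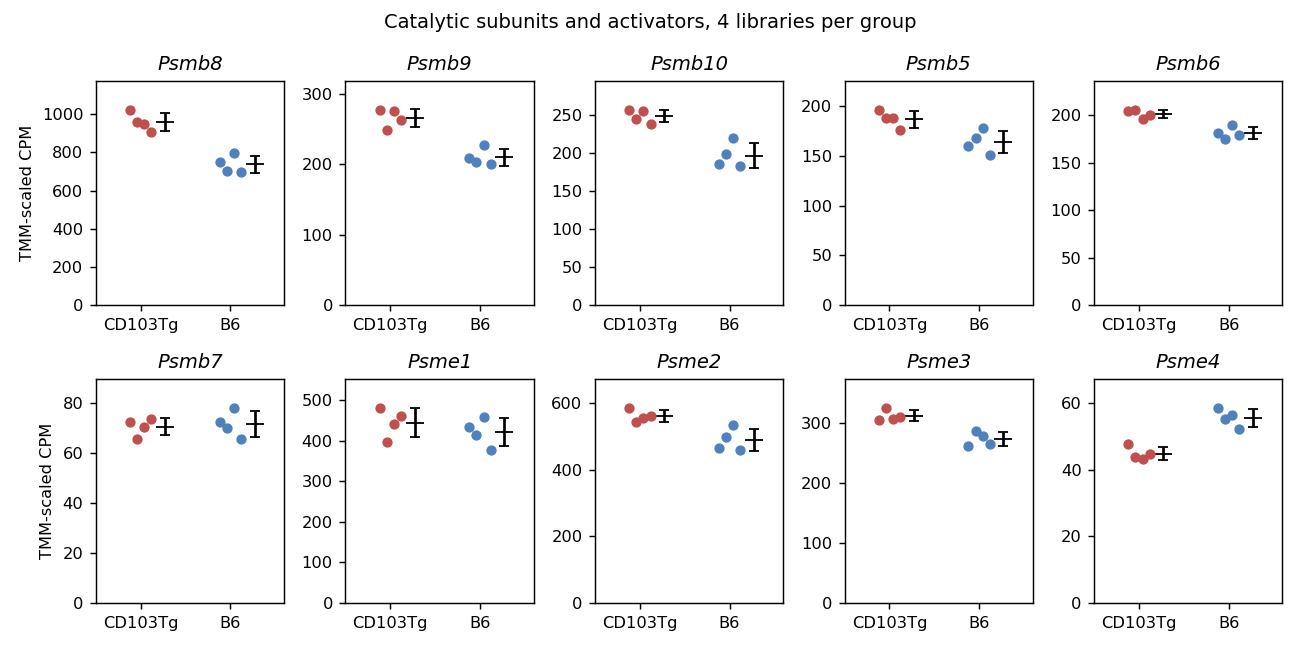
CPM of the catalytic immunoproteasome genes, their constitutive counterparts and the activators in each library (points), with mean and SD (n = 4 per group); each axis starts at 0. All 4 CD103Tg libraries lie above all B6 libraries for Psmb8, Psmb9, Psmb10, Psmb6, Psme2 and Psme3 and below them for Psme4, while Psmb5, Psmb7 and Psme1 overlap.

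The design allows a direct test of whether an immunoproteasome gene rose more than the gene whose product it displaces, because the length of each transcript cancels in the difference between groups. The log2 ratio of Psmb8 to Psmb5 was 2.37, 2.34, 2.33 and 2.36 in CD103Tg libraries, against 2.23, 2.06, 2.15 and 2.20 in B6 libraries, a difference of 0.19 ± 0.038 (SE). The ratio of Psmb9 to Psmb6 was 0.43, 0.27, 0.49 and 0.39 in CD103Tg libraries, against 0.20, 0.22, 0.26 and 0.16 in B6 libraries, a difference of 0.19 ± 0.050. The ratio of Psmb10 to Psmb7 was 1.81, 1.88, 1.84 and 1.68 in CD103Tg libraries, against 1.34, 1.49, 1.48 and 1.47 in B6 libraries, the largest difference of the 3 at 0.36 ± 0.056. In each pair every CD103Tg library was above every B6 library, and the exact two-sided permutation test gave p = 0.0286 for each (adjusted over the 3 pairs, 0.0286), the smallest value that 70 assignments allow. The closest approach was in Psmb9 to Psmb6, where CD103Tg replicate 2 at 0.27 stood just above B6 replicate 3 at 0.26. Without any 1 of the B6 libraries that pair gave an exact p = 0.0571, with differences of 0.17 to 0.20.

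**Figure D3:**
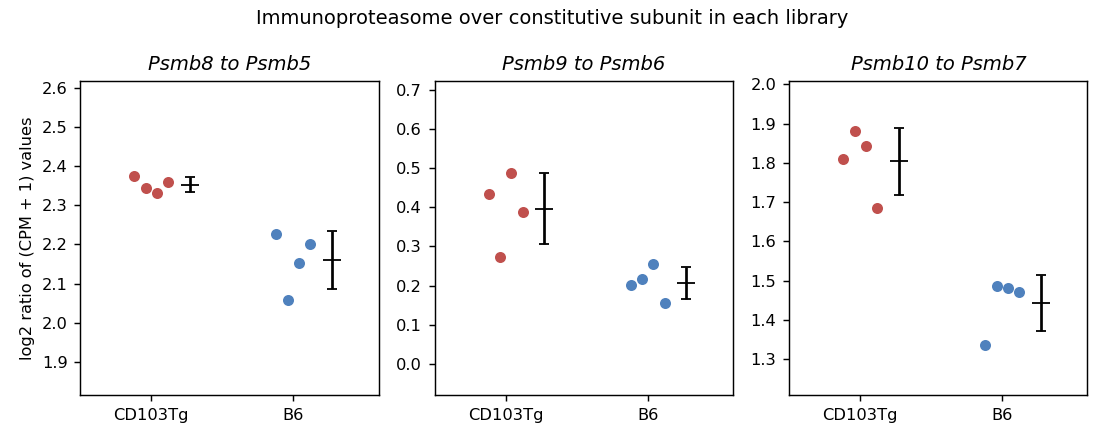
Log2 ratio of each immunoproteasome gene to the constitutive gene it replaces, per library (points), with mean and SD (n = 4 per group) on axes of equal height. The ratios of the CD103Tg libraries are above those of the B6 libraries in all 3 pairs, with the narrowest gap for Psmb9 to Psmb6.

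Levels of different genes can be set side by side only per length. With the principal transcript of GENCODE as the length, Psmb8 made up 73.9% ± 0.250 of Psmb8 plus Psmb5 in CD103Tg libraries and 71.2% ± 1.06 in B6 libraries (CPM per kb; SD, n = 4 each). Psmb9 made up 43.7% ± 1.55 of Psmb9 plus Psmb6 in CD103Tg libraries and 40.5% ± 0.695 in B6 libraries, and Psmb10 made up 75.7% ± 1.11 of Psmb10 plus Psmb7 in CD103Tg libraries and 70.8% ± 1.04 in B6 libraries. The height of these shares rests on the transcript model. Over the GENCODE basic transcripts the Psmb8 share went down to 66.2% in CD103Tg and 63.2% in B6. When transcripts begin at the RefSeq starts, a length chosen after seeing the data, the Psmb9 share was 54.3% in CD103Tg and 51.0% in B6, and the Psmb8 share was 78.5% in CD103Tg and 76.2% in B6. With the principal transcript as length, the highest genes in CPM per kb in CD103Tg were Psmb8 (589 ± 28.8), Psme2 (584 ± 18.1) and Psme1 (400.1 ± 32.4). The same 3 were highest in B6, where Psme2 stood at 509 ± 35.3, Psmb8 at 453 ± 28.0 and Psme1 at 379 ± 31.1. The order of Psmb8 and Psme2 also rests on the transcript model, since Psmb8 is 1.628 kb in that model and 1.223 kb from the RefSeq start.

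Of the partner genes Psme1 and Psme2, Psme2 passed. Psme2 (chromosome 14, 55587441 to 55591113) had 585.8, 544.8, 554.9 and 561.8 CPM in CD103Tg libraries, against 466.7, 498.8, 533.5 and 459.3 CPM in B6 libraries, with no overlap and a log2 fold change of 0.20 ± 0.058 (limma adjusted p = 0.0228). Its partner Psme1, on the opposite strand close by (55578123 to 55581529), had 481.0, 396.3, 442.4 and 460.1 CPM in CD103Tg libraries, against 433.9, 415.1, 459.2 and 377.0 CPM in B6 libraries. The Psme1 groups overlapped (log2 fold change 0.08 ± 0.075, limma adjusted p = 0.466), and whether the genes of the partners differ in their response was not tested. Psme2b, a single-exon copy of Psme2 on chromosome 11, had 44.1, 45.8, 49.8 and 53.3 CPM in CD103Tg libraries and 42.5, 50.3, 47.7 and 51.5 CPM in B6 libraries, so the division of reads between Psme2 and its copy is uncertain.

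The other activators moved in opposite directions. Psme3, the nuclear activator PA28 gamma (chromosome 11, 101316213 to 101323537), had 304.5, 324.8, 307.1 and 309.7 CPM in CD103Tg libraries, against 261.0, 286.5, 278.4 and 264.9 CPM in B6 libraries, a log2 fold change of 0.19 ± 0.049 (limma adjusted p = 0.0123). Psme4, which encodes the large activator PA200 (chromosome 11, 30771726 to 30880361), was the only one of the 48 genes to fall. It had 47.8, 43.8, 43.3 and 44.6 CPM in CD103Tg libraries, against 58.6, 55.4, 56.6 and 52.1 CPM in B6 libraries, with no overlap and a log2 fold change of -0.30 ± 0.060 (limma adjusted p = 0.00267). The inhibitor gene Psmf1 (PI31) had 74.5, 74.0, 74.0 and 73.4 CPM in CD103Tg libraries, against 77.6, 79.3, 80.8 and 75.9 CPM in B6 libraries. These values did not overlap either, but the difference was small and did not pass (log2 fold change -0.08 ± 0.047, limma adjusted p = 0.21).

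In the rest of the 20S core, 1 gene stood out. Psmb2, a structural beta subunit without catalytic activity, had 224.1, 217.2, 224.6 and 234.5 CPM in CD103Tg libraries, against 183.0, 175.2, 195.2 and 168.9 CPM in B6 libraries. Its log2 fold change of 0.32 ± 0.055 (limma adjusted p = 0.0012) was close in size to those of Psmb8, Psmb9 and Psmb10. The other structural beta genes did not pass, with log2 fold changes of 0.14 for Psmb1, 0.12 for Psmb3 and 0.055 for Psmb4. None of the 7 alpha ring genes passed, although all 7 fold changes were positive, in the narrow range of 0.06 to 0.13, and the smallest adjusted p among them was that of Psma7 (limma adjusted p = 0.076). It was also the only alpha ring gene with an unadjusted p under 0.05, so 1 of 7, and voom called 0.

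Of the 6 ATPase genes of the 19S base, whose products unfold the substrate, 3 rose and 3 did not pass (50% called, against 31.2% of all tested genes). Psmc3 (Rpt5) had 185.8, 196.7, 187.8 and 185.5 CPM in CD103Tg libraries, against 166.9, 168.3, 178.3 and 154.7 CPM in B6 libraries (log2 fold change 0.18 ± 0.053, limma adjusted p = 0.0255). Psmc4 (Rpt3) had 163.8, 181.9, 180.4 and 175.7 CPM in CD103Tg libraries, against 148.2, 159.5, 161.4 and 153.4 CPM in B6 libraries (0.17 ± 0.052, limma adjusted p = 0.0278). Psmc2 (Rpt1) had 157.5, 163.1, 155.5 and 155.9 CPM in CD103Tg libraries, against 142.7, 146.4, 147.1 and 135.5 CPM in B6 libraries (0.14 ± 0.047, limma adjusted p = 0.038). All 3 groups of values were separate between genotypes, and Psmc6 (Rpt4) was the ATPase gene with a negative value (-0.10 ± 0.073). Psmc3 shares 8.25% of its exon bases with Slc39a13.

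Of the 11 other 19S genes, 3 rose and 8 did not pass, with log2 fold changes of 0.02 to 0.22. The called share was 27.3%, against 31.2% of all tested genes. Psmd7 (Rpn8), the partner of the deubiquitinating subunit in the lid, had 131.9, 124.4, 126.0 and 129.7 CPM in CD103Tg libraries, against 107.6, 112.0, 110.5 and 109.4 CPM in B6 libraries (log2 fold change 0.22 ± 0.045, limma adjusted p = 0.00384). Psmd2 (Rpn1), a scaffold that receives ubiquitin receptors, had 417.6, 439.1, 423.9 and 410.4 CPM in CD103Tg libraries, against 360.1, 382.6, 371.1 and 348.7 CPM in B6 libraries (0.21 ± 0.049, limma adjusted p = 0.00759). Psmd13 (Rpn9), a lid subunit, had 126.3, 121.9, 121.6 and 120.6 CPM in CD103Tg libraries, against 112.5, 105.6, 118.5 and 102.0 CPM in B6 libraries (0.16 ± 0.056, limma adjusted p = 0.0467). In each of these genes the groups were separate, most widely as a ratio for Psmd7, while Psmd13 had the largest adjusted p of the 14 and 10.1% of its exon bases overlap Sirt3. None of the 7 assembly chaperone genes passed, and their median log2 fold change was 0.02; 0 of them had an unadjusted p under 0.05 in limma and voom called 0.

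Of the 48 genes, 15 had every CD103Tg library above every B6 library, and 17.4% of all tested genes did so. Psmc1 (Rpt2) and the alpha ring gene Psma4 were separate in this way without passing the test (limma adjusted p = 0.115 for Psmc1 and 0.148 for Psma4). In 2 genes, Psme4 and Psmf1, every CD103Tg library lay below, as in 13.6% of all tested genes; in either direction the groups were separate for 35.4% of the 48 genes and 31% of all tested genes. The 48 genes together summed to 8954 to 9394 CPM in CD103Tg libraries and 7688 to 8700 CPM in B6 libraries, or 0.901% ± 0.0127 of the listed signal in CD103Tg and 0.827% ± 0.0231 in B6 (SD, n = 4 each).

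The genes also moved together within the B6 group. B6 replicate 4 was the lowest B6 library for 38 of the 48 genes and B6 replicate 3 the highest for 36, where they were so for 32.7% and 24.0% of all tested genes. The median deviation of the 48 genes from their B6 mean was 0.01, -0.003, 0.09 and -0.09 on the log2 scale in B6 replicates 1 to 4, while over all tested genes it lay between -0.012 and 0.011. In CD103Tg the medians were 0.04, -0.003, -0.02 and -0.01. CD103Tg replicate 1 was the highest of its group for 26 of the 48 genes, where it was so for 27.4% of all tested genes. B6 replicate 4 also had the highest sum of the handling genes Fos, Jun, Hspa1a and Hspa1b of any library (1371 CPM, against 41.8 to 658 CPM in other B6 libraries and 68.7 to 556 CPM in CD103Tg), and B6 replicate 3 the next. Within CD103Tg, replicate 4 likewise had the highest handling sum (556 CPM) and replicate 3 the next (258.3 CPM). The part of handling in these values was not tested. Without B6 replicate 4, 8 genes were called higher and 2 lower, Psmc6 being the added fall.

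**Figure D4:**
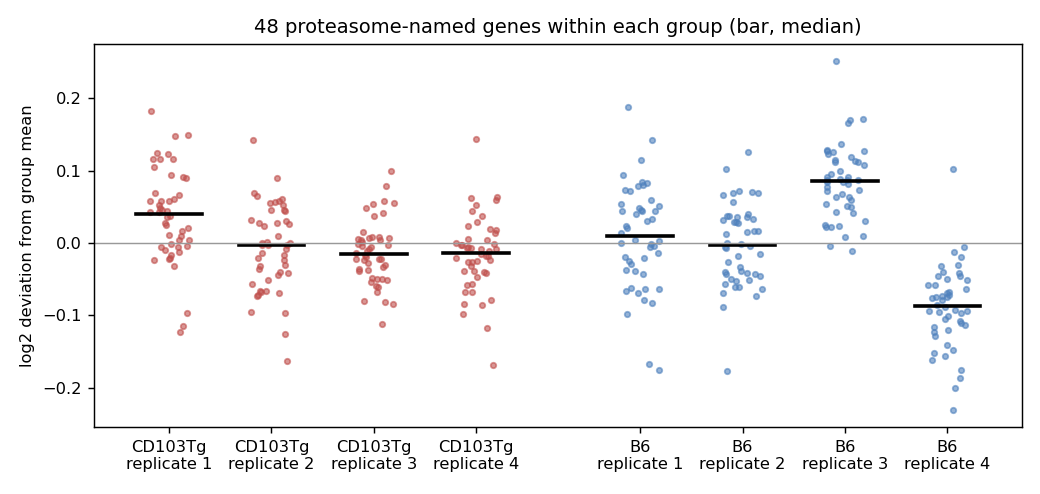
Deviation of each of the 48 genes from its group mean (log2 scale) in every library, with the median as a bar. The points of B6 replicate 3 lie mostly above 0 and those of B6 replicate 4 mostly below, with medians of 0.09 and -0.09, and the CD103Tg libraries stay closer together.

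Which genes were called depended on single libraries. The calls of Psmb8, Psmb9, Psmb10, Psmb2, Psmd2, Psmd7, Psme3 and Psme4 were present in all 18 alternative settings, which include leaving out each library in turn. The other 7 called genes lost their call in at least 3 of these settings. Without B6 replicate 1 the number called higher was 7, without B6 replicate 4 it was 8, and without CD103Tg replicates 1, 2 and 3 it was 9, 8 and 9.

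Genes around the proteasome that are not subunits were looked at as lists. Of 15 cofactor and maturation genes tested, 0 were called in either direction, against 31.2% of all tested genes. The smallest p-values were those of Pomp, the chaperone that matures the core, at 0.16 ± 0.057 (limma adjusted p = 0.0567), and the shuttle factor gene Ubqln2, at -0.30 ± 0.111 (limma adjusted p = 0.0598). At an unadjusted p under 0.05 there were 5 genes in that list, and voom on estimated reads called 0.

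Of the 6 genes of proteasome gene regulation by NRF1, 2 rose and 4 did not pass, so 33.3% were called, near the 31.2% of all tested genes. Nfe2l1, which encodes NRF1, had 103.3, 108.8, 104.5 and 107.1 CPM in CD103Tg libraries, against 89.97, 93.3, 93.1 and 89.1 CPM in B6 libraries, a log2 fold change of 0.21 ± 0.046 (limma adjusted p = 0.00537). The related Nfe2l2 (NRF2) had 105.7, 106.9, 99.8 and 101.1 CPM in CD103Tg libraries, against 86.4, 86.2, 79.1 and 85.3 CPM in B6 libraries (0.29 ± 0.051, limma adjusted p = 0.00135). Neither gene overlapped between groups.

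Of 11 genes of interferon signalling to the immunoproteasome, 5 rose, 1 fell and 5 did not pass (54.5% called, against 31.2% of all tested genes). The rises included those of the transcription factor genes Irf8 and Stat2 and the MHC class I regulator Nlrc5, and the receptor chain gene Ifngr2 fell. Irf8 had 39.9, 40.0, 40.6 and 41.9 CPM in CD103Tg libraries, against 27.2, 24.5, 24.0 and 23.6 CPM in B6 libraries (log2 fold change 0.69 ± 0.065), and Stat2 rose by 0.76 ± 0.127. Of 9 genes of peptide supply to MHC class I, 4 rose and 5 did not pass (44.4% called), the rises being those of Tap1, Tap2, Tapbp and Pdia3. Pdia3, a disulfide isomerase of the peptide loading complex, averaged 1204 ± 72.0 CPM in CD103Tg and 870.2 ± 59.1 CPM in B6.

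Of 8 cytosolic peptidase genes, 2 rose and 6 did not pass (25% called, against 31.2% of all tested genes), and the rises were those of Lta4h (0.32 ± 0.063) and Cndp2 (0.30 ± 0.064). Of 9 genes of ubiquitin and its first enzymes, 3 rose, 1 fell and 5 did not pass (44.4% called). The polyubiquitin gene Ubb rose by 0.21 ± 0.062 and Uba1, the main ubiquitin-activating enzyme, by 0.17 ± 0.047. The fall was that of Rps27a, which encodes ubiquitin fused to a ribosomal protein and is named after its values were seen. It had 286.9, 219.4, 245.7 and 247.2 CPM in CD103Tg libraries, against 357.96, 288.0, 400.1 and 270.98 CPM in B6 libraries. The groups overlapped, and its log2 fold change of -0.39 ± 0.120 (limma adjusted p = 0.0303) was the largest of the list in size.

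Other markers moved with the groups beside these genes. All 8 proliferation genes were called higher, with a sum of 373.8 to 608 CPM in CD103Tg libraries and 90.7 to 143.9 CPM in B6 libraries. Of 10 interferon response genes 9 were called higher, with a sum of 1455 to 1987 CPM in CD103Tg libraries and 690.4 to 743 CPM in B6 libraries. The gene not called was Gbp2 (log2 fold change 0.18 ± 0.069, limma adjusted p = 0.0718). Of the 6 B cell genes listed, 4 could be tested: Cd79a and Igkc were higher and Ighm lower, and the list summed to 380.8 to 546 CPM in CD103Tg and 794 to 886 CPM in B6. Of 6 myeloid genes listed, 4 could be tested and Cd68 and Siglech were higher, with sums of 14.7 to 94.0 CPM in CD103Tg and 4.86 to 62.4 CPM in B6. Both tested genes of the natural killer list, Klrb1c and Eomes, were higher (list sums 309.8 to 385 CPM in CD103Tg, 156.7 to 185.8 CPM in B6). Eomes made up most of these sums, with means of 345.4 CPM in CD103Tg and 164.4 CPM in B6. Klrb1c averaged only 6.97 CPM in CD103Tg and 3.55 CPM in B6. Whether the Eomes reads came from natural killer cells or from the sorted CD8 T cells was not tested. Ncr1, also listed, was too low to be tested, at 0.40 CPM in CD103Tg and 0.51 CPM in B6. Of the gamma delta pair, Tcrg-C1 was higher and Trdc did not pass (log2 fold change 0.26 ± 0.157, limma adjusted p = 0.236). The pair summed to 26.7 to 48.3 CPM in CD103Tg libraries and 12.8 to 18.4 CPM in B6 libraries. Neither of the 2 tested erythroid genes passed, nor had either an unadjusted p under 0.05 in limma or a call by voom, with sums of 0.363 to 107 CPM in CD103Tg and 1.07 to 32.2 CPM in B6. The part of these markers in the proteasome values was not tested, and in bulk RNA fewer cells of a type and less RNA per cell cannot be told apart.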

How the data were processed

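Libraries of lymph node CD8 T cells, 4 from CD103Tg and 4 from B6 mice, were made with SMART-Seq v4 and Nextera XT, per the labels' protocols. Kits of this type do not mark strand. Per the submitters' processing notes, the tools included STAR 2.7.0f, RSEM, cutadapt 1.18 and bcl2fastq 2.17, with GRCm38 (mm10) as genome. Which annotation was counted is not given, but all 13245 gene IDs matched GENCODE M21. Per the labels, the authors deposited a normalized signal, TMM-scaled CPM of a filtered gene set; the filter is not given. The columns sum to 962335 to 1022065. Steps in the values gave 50187279 to 56371476 estimated reads per library, and 63.0% to 65.2% of values were whole reads within 0.005 of a read, so counts were not tested as such.

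Genes whose mean reached 1 CPM were tested with limma 3.58.1 (trend, R 4.3.3) on log2(CPM + 1), CD103Tg minus B6, with Benjamini-Hochberg adjustment over 11503 genes; fold changes of low genes are understated on this scale. Ratios of 3 gene pairs were tested with an exact permutation test over 70 assignments. Python 3.11.15 made the other summaries, and the fit was tested on simulated data. Alternatives were other pseudocounts (0.1 and 5), filters, scalings, robust variance, voom on estimated reads, a replicate block and leaving out each library. Named genes were the immunoproteasome genes, their counterparts, activators and inhibitor, every other called gene, and the 2 of smallest p in each pathway list. The genes and lists were chosen with earlier results of these data known.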

Additional observations from a re-analysis of the deposited data

Results flagged for a closer look

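Among 102 groups of 4 values screened for a library far from its group, 3 were found, and chance alone flags about 1 group in 20. Psmb1, a structural beta subunit gene, was at 271.5 CPM in CD103Tg replicate 1 and between 233.4 and 238.3 CPM in the other CD103Tg libraries. Psmb4, another structural beta subunit gene, was at 120.0 CPM in CD103Tg replicate 1, while the other CD103Tg libraries lay between 106.3 and 108.6 CPM. The log2 ratio of Psmb10 to Psmb7 was 1.34 in B6 replicate 1, below the 1.47 to 1.49 of the other B6 libraries.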

How the results depend on the processing

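The number of genes called higher in CD103Tg was 14, and 12 under quantile normalization, 11 under equal totals, 13 with robust variance and 13 with voom. Leaving out 1 library gave 7 to 16 genes called higher and 1 to 2 called lower, the low counts being 7 without B6 replicate 1, 8 without B6 replicate 4, and 9, 8 and 9 without CD103Tg replicates 1, 2 and 3. No called gene changed direction in these settings, and Psmb7, which was not called, was at 0.02 without B6 replicate 3 and 0.01 without CD103Tg replicate 2. The difference in the ratio of Psmb9 to Psmb6 ranged from 0.158 to 0.229 when 1 library was left out. Without any 1 of the B6 libraries it was 0.171 to 0.205 and the exact permutation p was 0.0571. Without any 1 of the CD103Tg libraries that p was 0.0286. The groups stayed separate, but at 0.0571 another assignment of the libraries gave a difference at least as large as the observed one. The cause of the other changes was not tested. Same-numbered libraries correlated at 0.221, 0.35, -0.081 and 0.123, and not every library correlated best with its own number. The main test did not pair the samples. With the replicate block 14 genes were called higher and 1 lower, and 3682 of all genes were called, against 3592 without it. Handling sums had the same order of replicate numbers in both groups. They were 194.8, 68.7, 258.3 and 556 CPM in CD103Tg replicates 1 to 4, and 172.0, 41.8, 658 and 1371 CPM in B6 replicates 1 to 4. The myeloid sums also shared 1 order, and the erythroid sum was highest in replicate 4 of each group. Whether same-numbered libraries were processed together is not in the labels and was not tested. The median of all genes was -0.04 under quantile normalization, and that of the 48 genes 0.07. With 4 libraries a group the smallest exact p is 0.0286. Values of overlapping genes are limited by unstranded libraries.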
